A study of Mus musculus with 10 samples.

Results

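The Notch receptors, ligands and transcriptional targets of cultured mouse myotubes are described here through 10 genes. These are the receptors Notch1, Notch2 and Notch3, the ligands Jag1 and Dll1, the DNA-binding partner Rbpj, and the basic helix-loop-helix genes Hes1, Hey1, Heyl and Hes6. They were chosen by name, as the probes whose annotated symbol is one of these 10. All 10 genes were on the array, with 15 of its 45281 probes, out of 19057 genes with a symbol.

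Notch receptors are membrane proteins that a ligand on a neighbouring cell activates. A chain of proteolytic cuts then frees the intracellular part of the receptor, which enters the nucleus and joins RBPJ to switch on target genes, the Hes and Hey repressors among them. In muscle, Notch signalling is known for holding satellite cells and myoblasts undifferentiated, and Hey1 and Heyl are 2 of its known targets there, while Hes6, a relative of Hes1 that counteracts it, is known for accompanying myogenic differentiation.

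Total RNA was hybridised to Illumina bead arrays for the mouse, from IM2 cells, a mouse muscle line, after confluent myoblasts had been held under fusion conditions for 4 days. Every culture carried PABPN1 with a FLAG tag, a protein that binds poly(A) tails in the nucleus and that is mutated, by added alanines, in oculopharyngeal muscular dystrophy, so no group was free of the transgene. D7E myotubes (3 arrays) made a mutant PABPN1-FLAG in an amount that the labels put close to that of WTA. WTD myotubes (3 arrays) had the tagged wild type protein at what the labels name a low level, and WTA myotubes (2 arrays) are labelled only as having the tagged wild type protein. The sources used here do not give the exact mutation, the promoter of the transgene or whether a group is a single clone. Nothing in the labels says that replicates are cultures grown apart, and the p-values here therefore reflect the spread between arrays, which may be technical.

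The arrays had 13653 to 17565 probes above background, meaning a detection p under 0.05. The WTD signals stood in another probe order than their identifiers, and all WTD values rest on an order restored through the WTA arrays shared by both tables. The 1 probe of Pabpn1 read log2 intensities of 9.16, 9.58 and 10.58 in D7E, 10.24, 10.26 and 9.87 in WTD, and 9.24 and 9.18 in WTA. It was thus higher on every array labelled low level than on both WTA arrays (difference 0.89 ± 0.19 SE, limma adjusted p = 0.0552), and the sources used here do not say whether it reads the transgene. Of the markers of differentiated myotubes, 9 of 9 on the array were above background on at least 2 arrays. Of 9 markers of undifferentiated myoblasts and reserve cells 3 were, and Pax7, Calcr, Cd34 and Chrdl2 were not above background on any array. In such bulk samples fewer cells of a type and less RNA per cell cannot be told apart.

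One of the 10 genes changed past the threshold, a Benjamini-Hochberg adjusted p under 0.05 over all probes tested, in 1 comparison. Hey1 rose in WTD against WTA by 0.91 ± 0.17 on the log2 scale (SE, 1.87-fold), and D7E lay between WTD and WTA. Its probe was 1 of 11 member probes, of 9 genes, tested in WTD against WTA, where 1.23% of all probes passed. The call was lost without WTD replicate 1 or 2, with arrays centred on their medians and without the filter on dim probes. Leaving out WTA replicate 1 or 2 left 1 WTA array, with differences of 0.87 and 0.94. Dll1 and all 3 probes of Hes6 had higher means in D7E and in WTD than in WTA, and Notch3, Hey1 and Heyl had lower means in D7E than in WTD, but none of these differences passed. With median centring of the arrays the direction of Notch3 and Hey1 between D7E and WTD turned. There the median difference of all tested probes was 0.44, and relative to it Notch3 and Hey1 read -0.20 and -0.24. Rbpj was at background on nearly every array and was not tested. Levels below are log2 intensities from all 8 arrays normalized together, and differences are from each comparison's own fit, which normalizes the arrays of 1 table for the comparisons with WTA; for the tested probes the 2 scales gave differences within 0.0631 of each other.

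**Figure D1:**
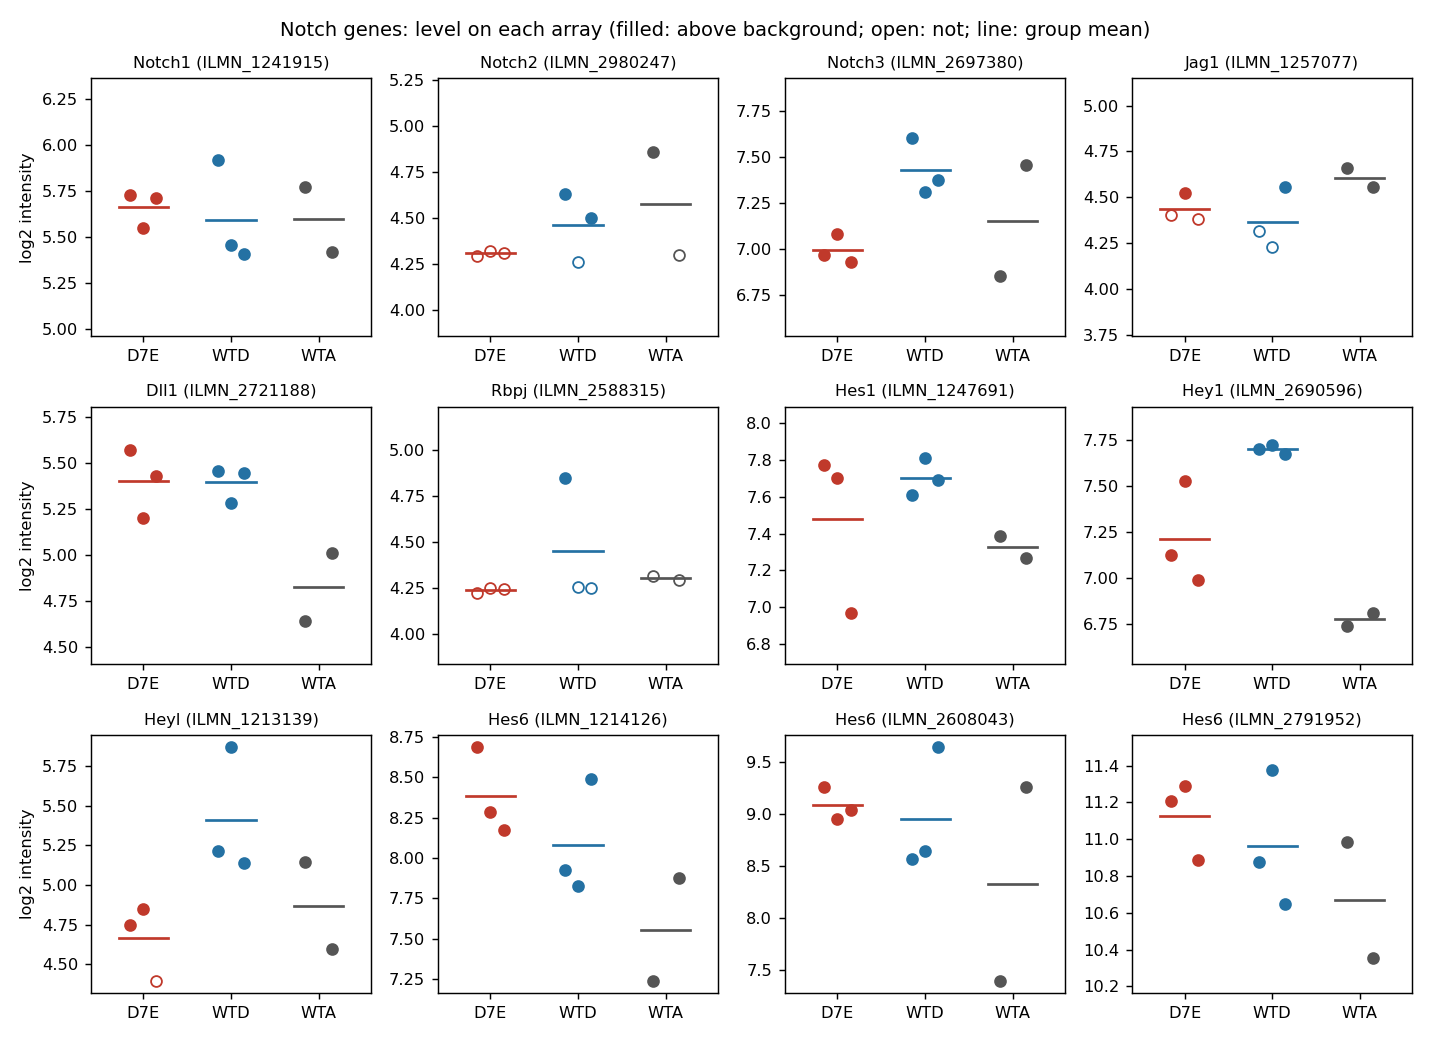
Log2 intensity (y axis) of 12 of the 15 probes on each of the 3 D7E, 3 WTD and 2 WTA arrays, with filled points above background, open points not above it, and a line at each group mean. The 3 WTD points of Hey1 sit at 7.67 to 7.72, above the D7E points at 6.99 to 7.53 and the WTA points at 6.74 and 6.81; each panel has its own y range, and levels of different probes cannot be compared.

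Promoter sequence was at hand for 7 of the 10 genes (RefSeq, mouse build GRCm38.p6), and Hes1, Hey1 and Heyl were not analysed in this respect. The 250 bases before the start are shown for the gene with the smallest p among these 7 in each comparison, which was Dll1 in WTD against WTA, Hes6 in D7E against WTA and Notch3 in D7E against WTD. Capitals mark CAGCTG, an E-box sequence of the kind that MyoD-family factors bind. All 3 are on the minus strand, Dll1 at chr17:15376933-15377182, Hes6 at chr1:91414039-91414288 and Notch3 at chr17:32166891-32167140.
Dll1: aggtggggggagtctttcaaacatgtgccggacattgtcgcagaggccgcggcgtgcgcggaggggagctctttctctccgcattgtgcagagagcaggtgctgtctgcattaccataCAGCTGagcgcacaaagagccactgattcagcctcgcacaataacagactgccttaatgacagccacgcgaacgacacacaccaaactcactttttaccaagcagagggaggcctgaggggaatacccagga
Hes6: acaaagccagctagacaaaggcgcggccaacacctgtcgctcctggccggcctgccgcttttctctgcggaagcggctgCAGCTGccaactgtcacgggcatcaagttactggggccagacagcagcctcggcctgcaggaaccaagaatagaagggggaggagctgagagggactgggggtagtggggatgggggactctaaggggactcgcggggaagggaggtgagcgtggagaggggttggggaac
Notch3: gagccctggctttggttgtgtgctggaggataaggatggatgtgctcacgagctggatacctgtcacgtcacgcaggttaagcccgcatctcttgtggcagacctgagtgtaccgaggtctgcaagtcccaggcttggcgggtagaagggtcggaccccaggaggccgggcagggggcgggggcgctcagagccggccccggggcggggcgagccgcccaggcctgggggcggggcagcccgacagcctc
The windows of Dll1 and Hes6 hold the E-box letters once each, beginning 132 bases before the start of Dll1 and 171 before that of Hes6, and the window of Notch3 does not hold them. The letters read the same on both strands, and 13% of 32851 mouse promoter windows of this length hold them, Jag1 among the 7 genes as well. The core letters of an RBPJ site, TGGGAA on either strand, stand in 21.59% of such windows. Of the 7 genes Rbpj holds them, at 2 places, and the windows of Notch1, Notch2, Notch3, Jag1, Dll1 and Hes6 do not. A match of letters describes the window and is not evidence of binding.

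Among the receptors, Notch3 had levels of 6.97, 7.08 and 6.93 in D7E, 7.60, 7.31 and 7.38 in WTD, and 6.86 and 7.46 in WTA. All D7E arrays lay below all WTD arrays, while the WTA arrays spanned most of the range. Notch3, a receptor known from smooth muscle, pericytes and satellite cells, differed between D7E and WTD by -0.44 ± 0.15 (SE, limma adjusted p = 0.492). Median centring turned this value to 0.24, or -0.20 relative to the median difference of all tested probes. Notch3 differed by 0.27 ± 0.21 between WTD and WTA (adjusted p = 0.678) and by -0.16 ± 0.20 between D7E and WTA (adjusted p = 0.767), both within the spread of the WTA arrays.

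Notch1, the receptor best studied in satellite cells, was above background on all 8 arrays, with close group means. Its levels were 5.73, 5.55 and 5.71 in D7E, 5.92, 5.45 and 5.40 in WTD, and 5.77 and 5.42 in WTA. The groups overlapped in every comparison. The differences were 0.07 ± 0.17 between D7E and WTD, 0.07 ± 0.18 between D7E and WTA, and -0.00 ± 0.21 between WTD and WTA (SE, adjusted p = 0.899 to 0.9996). With 2 or 3 arrays a group these errors do not show that the levels were equal.

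Notch2 was near the detection limit. Of its 2 probes, ILMN_2980247 was above background on none of the D7E arrays, on WTD replicates 1 and 3 and on WTA replicate 1, with levels of 4.29, 4.32 and 4.31 in D7E, 4.64, 4.26 and 4.50 in WTD, and 4.86 and 4.30 in WTA. The arrays that detected it were the highest of their groups. It differed between WTD and WTA by -0.10 ± 0.21 (SE, adjusted p = 0.915) and between D7E and WTD by -0.16 ± 0.16 (SE, adjusted p = 0.826), and no fold is given for the second, since D7E has only a bound. The other probe, ILMN_2678002, was above background on WTD replicate 3 alone and was not tested. The detection p-values of WTD replicates 1 and 3 were estimated. With the deposited ones, ILMN_2980247 was not tested between D7E and WTD.

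Of the ligands, Dll1, a Delta-like ligand that myogenic cells present to their neighbours, had levels of 5.57, 5.20 and 5.42 in D7E, 5.46, 5.28 and 5.44 in WTD, and 4.64 and 5.01 in WTA. Both WTA arrays lay below the other 6. The difference from WTA was 0.61 ± 0.20 in D7E (SE, 1.53-fold, limma adjusted p = 0.188) and 0.51 ± 0.18 in WTD (SE, 1.42-fold, adjusted p = 0.278), and neither passed. Without background correction these were smaller, at 0.20 in D7E and 0.16 in WTD by quantile normalization alone. In the authors' values they were 0.18 in D7E and 0.18 in WTD. Both comparisons use the same 2 WTA arrays, so they are not independent of each other. D7E and WTD overlapped, with a difference of 0.00 ± 0.16 (SE, adjusted p = 0.996).

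Jag1, the Jagged ligand, was dim, above background on 1 of 3 D7E arrays, 1 of 3 WTD arrays and both WTA arrays. The WTD array was replicate 3, whose detection p-values were estimated. With the deposited ones, Jag1 was not tested between D7E and WTD. It read 4.40, 4.53 and 4.39 in D7E, 4.32, 4.23 and 4.55 in WTD, and 4.66 and 4.56 in WTA. The WTA arrays were the highest by a narrow margin, the nearest WTD array lying at 4.55. The differences were -0.18 ± 0.17 between D7E and WTA (adjusted p = 0.668), -0.21 ± 0.18 between WTD and WTA (adjusted p = 0.699) and 0.07 ± 0.15 between D7E and WTD (adjusted p = 0.938).

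Rbpj, the DNA-binding protein through which the receptors act, had 3 probes, and none was above background on 2 arrays. ILMN_2588315 and ILMN_2772508 were above it on WTD replicate 1 alone, and ILMN_2648536 on no array. The detection p-values of that WTD array were estimated. The level of ILMN_2588315 was 4.84 on that WTD array and 4.22 to 4.31 on the other 7. The arrays therefore give only a bound for Rbpj.

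Hey1, a repressor of the Hairy and Enhancer-of-split-related family and a direct Notch target, carried the 1 call. Its levels were 7.13, 7.53 and 6.99 in D7E, 7.70, 7.72 and 7.67 in WTD, and 6.74 and 6.81 in WTA. The 3 WTD arrays lay within 0.05 of each other by these values, the WTA arrays lay nearly as close together, and the D7E arrays were scattered between them without reaching either group. The means were 7.22 ± 0.28 in D7E (SD, n = 3), 7.70 ± 0.02 in WTD (SD, n = 3) and 6.78 ± 0.05 in WTA (SD, n = 2).

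The rise of Hey1 in WTD against WTA had a limma adjusted p of 0.0325 and ranked 146 by p among 17071 probes. D7E differed from WTA by 0.45 ± 0.20 (SE, 1.36-fold, adjusted p = 0.321) and from WTD by -0.48 ± 0.17 (SE, 0.715-fold, adjusted p = 0.492), and neither passed. In the order WTD, D7E, WTA the ends are thus apart by the test, and neither pair of neighbours is. The difference of D7E from WTD turned to 0.20 with arrays centred on their medians. There the median difference of all tested probes was 0.44, and relative to it Hey1 read -0.24.

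The Hey1 call depended on single arrays and on settings. It was lost without WTD replicate 1 (adjusted p = 0.188), WTD replicate 2 (adjusted p = 0.106), WTA replicate 1 (adjusted p = 0.317) or WTA replicate 2 (adjusted p = 0.174), although the difference stayed between 0.87 and 0.94, and without WTD replicate 3 it was kept (adjusted p = 0.0340). The separation was not visible in the signals as deposited, which were 239.8, 343.3 and 221.5 in D7E, 205, 151.7 and 361.7 in WTD, and 149.7 and 174.7 in WTA. There WTD replicate 2 lay between the WTA arrays, on an array whose 95th percentile was 3.20 times its median, the lowest of the 8, against 4.84 to 8.37 on the others. Without background correction the rise was smaller, at 0.57 by quantile normalization alone (adjusted p = 0.0187) and 0.62 in the authors' values (adjusted p = 0.0167).

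**Figure D2:**
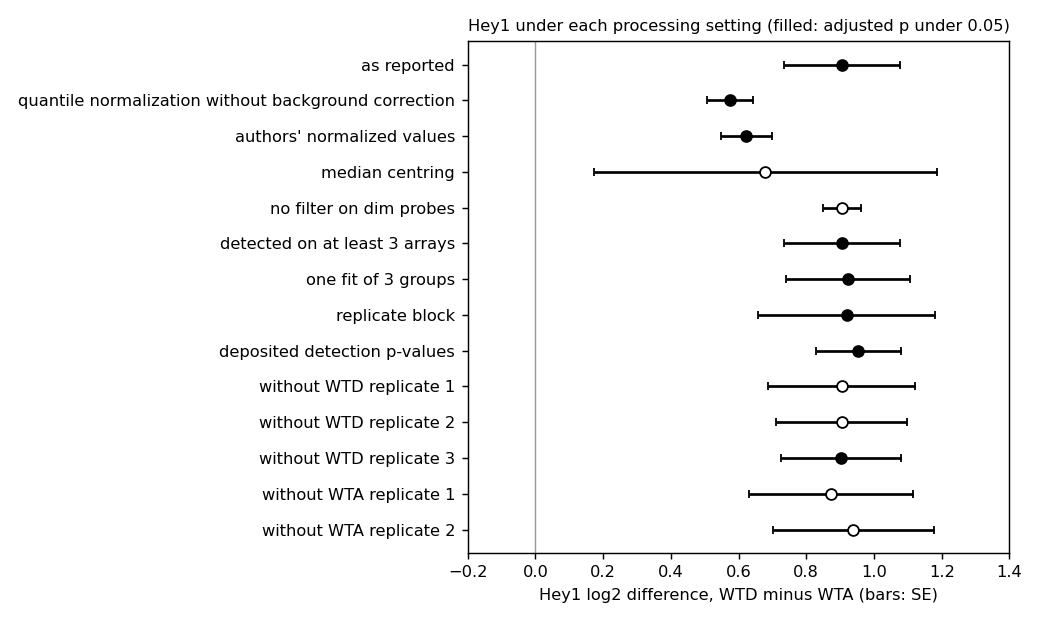
Log2 difference of Hey1 between WTD and WTA (x axis, bars are SE) under the reported processing and 13 alternatives, filled where the adjusted p was under 0.05. The difference stayed above 0 throughout, from 0.57 with quantile normalization alone to 0.95 with the deposited detection p-values; the call was lost with median centring, without the filter on dim probes and without any 1 of 4 arrays.

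Heyl, a close relative of Hey1, had levels of 4.75, 4.85 and 4.39 in D7E, 5.22, 5.87 and 5.14 in WTD, and 5.14 and 4.60 in WTA, and D7E replicate 3 was not above background. All D7E arrays lay below all WTD arrays, and WTA overlapped both. D7E differed from WTD by -0.74 ± 0.21 (SE, 0.597-fold, limma adjusted p = 0.403), which was the smallest p of the member probes in that comparison and did not pass over all probes. WTD differed from WTA by 0.48 ± 0.24 (adjusted p = 0.464) and D7E from WTA by -0.22 ± 0.22 (adjusted p = 0.700). The size of the Heyl difference between D7E and WTD depended on the processing. Quantile normalization without background correction gave -0.24, and the log2 values of the authors also gave -0.24. The D7E mean of Heyl was 4.66, where Rbpj probe ILMN_2588315, not above background in D7E, read 4.24.

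Notch3 and Heyl are also known from pericytes and smooth muscle. The summed linear intensity of 5 of 7 markers of these cells was 23928 to 25853 in D7E, 25872 to 28670 in WTD, and 22909 to 26494 in WTA, and 99.4% of it was Acta2, which developing myotubes also make, so the sum describes that gene. Between D7E and WTD the 5 markers read -0.49 for Abcc9, -0.27 for Rgs5, -0.14 for Acta2, 0.12 for Pdgfrb and 0.09 for Cspg4 (adjusted p = 0.477 to 0.938). Kcnj8 and Myh11, defining for these cells, were not above background on any array, and no marker of the list passed in any comparison.

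Hes1, the Hairy-related repressor that Notch induces in many tissues, had levels of 7.77, 7.70 and 6.97 in D7E, 7.61, 7.81 and 7.69 in WTD, and 7.39 and 7.27 in WTA. All WTD arrays lay above both WTA arrays, and D7E replicate 3 lay below every other array. WTD differed from WTA by 0.37 ± 0.18 (SE, adjusted p = 0.425). The differences of D7E were 0.15 ± 0.24 from WTA (adjusted p = 0.825) and -0.22 ± 0.21 from WTD (adjusted p = 0.813). The one from WTD turned to 0.03 without D7E replicate 3. With median centring it turned to 0.46, where the median difference of all tested probes was 0.44.

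Hes6 had 3 probes, all above background on all 8 arrays, and on each the mean was highest in D7E, next in WTD and lowest in WTA. Probe ILMN_1214126 had levels of 8.69, 8.29 and 8.18 in D7E, 7.92, 7.83 and 8.49 in WTD, and 7.24 and 7.87 in WTA. Probe ILMN_2608043 had 9.25, 8.95 and 9.03 in D7E, 8.57, 8.64 and 9.64 in WTD, and 7.39 and 9.26 in WTA. Probe ILMN_2791952, the brightest, had 11.21, 11.29 and 10.88 in D7E, 10.87, 11.38 and 10.65 in WTD, and 10.98 and 10.35 in WTA.

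The probes did not follow each other within groups. WTD replicate 3 was the highest WTD array on the first 2 of these probes and the lowest on the third, and WTA replicate 1 was the lower WTA array on the first 2 and the higher on the third. D7E lay above both WTA arrays on ILMN_1214126 only. There it differed from WTA by 0.83 ± 0.23 (SE, 1.78-fold, adjusted p = 0.143), the smallest p of the member probes in that comparison.

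The other Hes6 probes, ILMN_2608043 and ILMN_2791952, differed between D7E and WTA by 0.76 ± 0.41 (adjusted p = 0.420) and 0.46 ± 0.22 (adjusted p = 0.363). The 0.76 of ILMN_2608043 rested on the WTA arrays, with 1.70 (adjusted p = 0.0309) without WTA replicate 2 and -0.18 without WTA replicate 1. Between WTD and WTA the 3 probes read 0.52, 0.62 and 0.30 (adjusted p = 0.445, 0.660 and 0.705), and between D7E and WTD 0.30, 0.13 and 0.16 (adjusted p = 0.725, 0.931 and 0.873). With arrays centred on their medians Hes6 ILMN_1214126 (1.29) and ILMN_2791952 (1.04), Dll1 (0.78) and Hey1 (0.88) passed in D7E against WTA. There the median difference of all tested probes was 0.31, and 1648 probes passed.

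**Figure D3:**
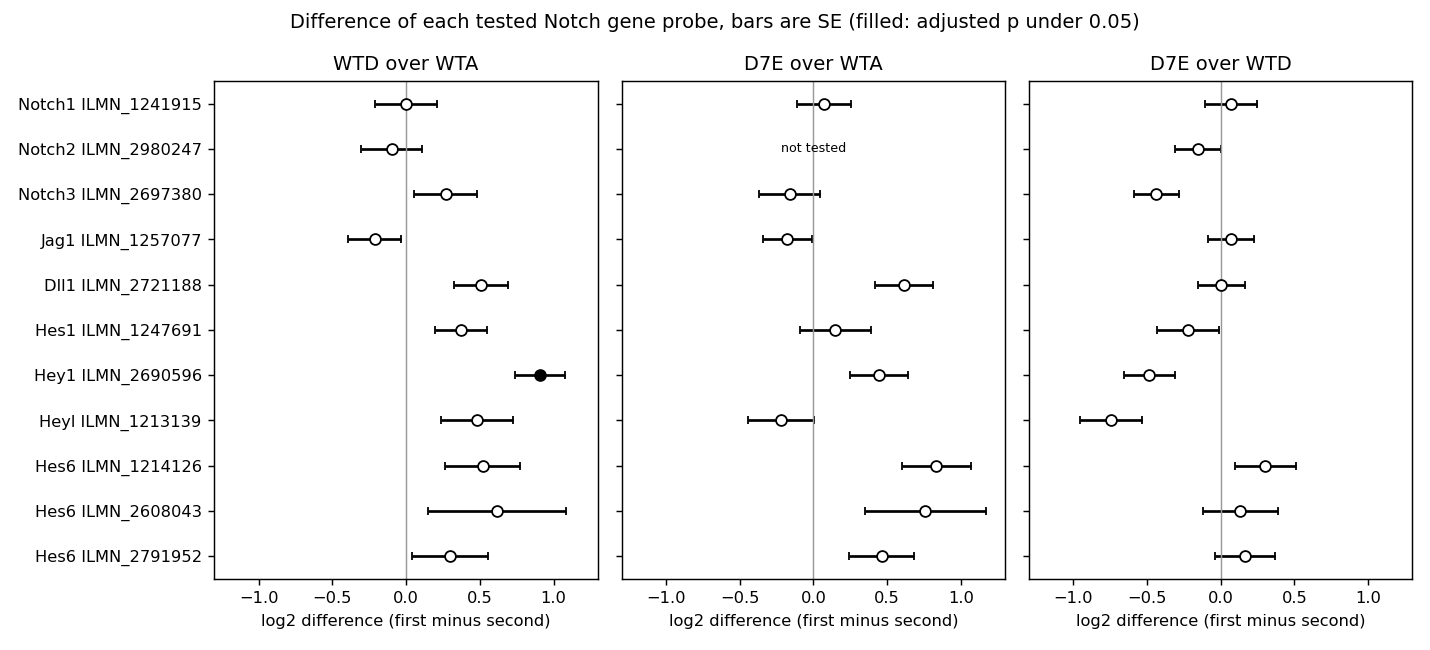
Log2 differences (x axis, bars are SE) of the tested probes for WTD over WTA, D7E over WTA and D7E over WTD, filled where the adjusted p was under 0.05. Hey1 in WTD over WTA, at 0.91, is the 1 filled point. Notch3 (-0.44), Hey1 (-0.48) and Heyl (-0.74) lie farthest below 0 in D7E over WTD. Under median centring Notch3 read 0.24 and Hey1 0.20 there, where the median difference of all tested probes was 0.44.

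In WTD against WTA 11 member probes of 9 genes were tested and 1 passed, where 1.23% of all 17071 probes did (0.697% higher in WTD), and a single call does not set the genes apart. The probes of 3 genes (Dll1, Hes1 and Hey1) lay above WTA without overlap and those of 1 (Jag1) below, a share near the 29.5% of all probes that did not overlap (14.3% higher and 15.3% lower in WTD). The median difference was 0.37 over the member probes and -0.02 over all, and 2 member probes had an unadjusted p under 0.05, both higher in WTD, against 12.5% of all (6.24% higher).

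In D7E against WTA 10 member probes of 8 genes were tested and limma called 0, where 0.423% of all 16802 probes passed. Notch2 and Rbpj were not tested there. An unadjusted p under 0.05 was reached by 3 probes, those of Dll1, Hey1 and 1 of Hes6, all higher in D7E, against 15.1% of all (7.79% higher). No overlap was seen for these 3 and, on the lower side, Jag1, a share near the 32.5% of all (16.1% higher and 16.3% lower in D7E). The median was 0.30 over the member probes and -0.00 over all.

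In D7E against WTD limma called 0 of 11 member probes, and 0.00566% of all 17655 probes, a single one, passed. Notch3, Hey1 and Heyl had an unadjusted p under 0.05, against 8.34% of all (3.66% lower), and were also the 3 whose arrays did not overlap, all lower in D7E, against 14.3% of all in either direction and 6.76% lower. With median centring Notch3 and Hey1 turned to values above 0. There the median difference of all tested probes was 0.44, and relative to it Notch3 and Hey1 read -0.20 and -0.24. The member median was 0.00 and that of all probes 0.01.

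The other genes of the pathway were looked at in 6 lists of 69 genes, of which 62 were on the array. None passed in any comparison. In WTD against WTA 30 of 49 tested genes had values above 0 (median 0.10, against -0.02 over all probes). In D7E against WTA 28 of 47 did (median 0.07, against -0.00), and in D7E against WTD 23 of 50 (median -0.03, against 0.01).

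**Figure D4:**
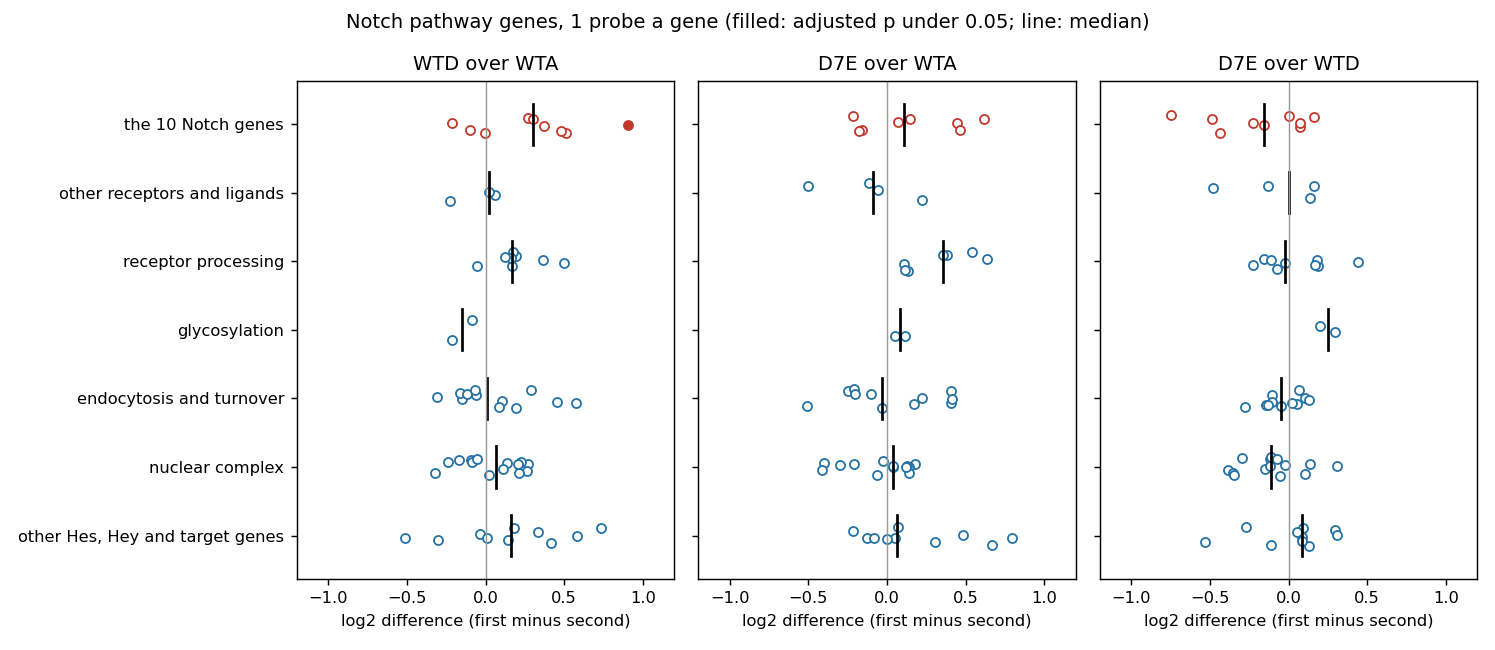
Log2 differences (x axis) of the tested genes among the 10 and in the 6 lists of other Notch pathway genes, for WTD over WTA, D7E over WTA and D7E over WTD. Each gene has 1 point, and a line stands at each median. Rbpj is not drawn, and Notch2 is not drawn in D7E over WTA. The 1 filled point, past the threshold, is Hey1. The 7 points of receptor processing all lie above 0 in D7E over WTA, with a median of 0.36, while a further probe of Furin and of Adam17, not drawn, had the opposite sign.

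Genes that cut the receptor had the highest median of the 6 lists in D7E against WTA, at 0.36, with 7 of 7 tested above 0 on their brightest probes. For Furin and for Adam17 another tested probe had the opposite sign. That median was 0.15 with quantile normalization alone, 0.14 in the authors' values and, relative to the shift of all probes, 0.39 with median centring, and 7 of 7 were above 0 in each. The lowest p belonged to Psen2, a catalytic subunit of gamma-secretase, at 0.63 (adjusted p = 0.135), and to Psenen, another of its subunits, at 0.54 (adjusted p = 0.189). In WTD against WTA 7 of 8 were above 0 (median 0.17), led by Furin, the convertase that makes the first cut, at 0.50 (adjusted p = 0.313), and Psenen at 0.36 (adjusted p = 0.5002). In D7E against WTD 4 of 9 were above 0 (median -0.02), with Psen2 at 0.44 (adjusted p = 0.510). Adam10, the sheddase that ligand binding sets to work, was at -0.22 (adjusted p = 0.735). It was dim, with a D7E mean of 4.28, where Rbpj probe ILMN_2588315, not above background in D7E, read 4.24.

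Of the other receptors and ligands, 3 or 4 of 7 could be tested. In D7E against WTA the non-canonical ligand gene Dlk1 read -0.50 (adjusted p = 0.288, its other tested probe having the opposite sign), and Dner read 0.22 (adjusted p = 0.627). In D7E against WTD they read -0.48 (adjusted p = 0.634) and 0.16 (adjusted p = 0.828). Dner was dim, with means of 4.42 in D7E and 4.20 in WTA when these were compared. Rbpj probe ILMN_2588315, not above background in either group, read 4.25 and 4.31 there. In WTD against WTA the lowest p belonged to Jag2, the other Jagged ligand, at -0.22 (adjusted p = 0.700), and to the receptor Notch4 at 0.06 (adjusted p = 0.952). The glycosyltransferases Rfng and Poglut1, which modify the receptor, read -0.22 and -0.09 in WTD against WTA, 0.05 and 0.11 in D7E against WTA and 0.30 and 0.20 in D7E against WTD (adjusted p = 0.714 to 0.932).

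Genes of endocytosis and turnover were split, with 6 of 12 above 0 in WTD against WTA, 5 of 11 in D7E against WTA and 5 of 11 in D7E against WTD. The ubiquitin ligase genes Dtx4 and Itch read 0.57 and 0.46 in WTD against WTA (adjusted p = 0.215 and 0.429). The WTA mean of Dtx4 there was 4.49, near the 4.28 of Rbpj probe ILMN_2588315, which was not above background in WTA. Fbxw7, which marks the intracellular receptor for breakdown, read 0.40 in D7E against WTA (adjusted p = 0.303), and Mib1, which drives ligand uptake, -0.51 (adjusted p = 0.442). Dtx4 and Dtx2 read -0.28 and -0.14 in D7E against WTD (adjusted p = 0.776 and 0.828).

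Of the nuclear partners, 8 of 14 were above 0 in WTD against WTA, with the acetyltransferase Kat2b at -0.32 (adjusted p = 0.607, another probe in the opposite direction) and the coactivator Maml2 at 0.27 (adjusted p = 0.617). In D7E against WTA 7 of 13 were above 0, with the acetyltransferase Ep300 at -0.40 (adjusted p = 0.311) and Kat2b at -0.41 (adjusted p = 0.361). In D7E against WTD 3 of 14 were, with the corepressor Ctbp2 at -0.38 (adjusted p = 0.578) and the Rbpj relative Rbpjl at -0.35 (adjusted p = 0.634). Both were dim, with D7E means of 4.39 and 4.29, where Rbpj probe ILMN_2588315, not above background in D7E, read 4.24. The median of -0.11 turned to 0.30 with median centring, which is -0.14 relative to the median difference of all tested probes.

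Among the other Hes, Hey and target genes, Id3 and Id1, inhibitors of basic helix-loop-helix factors, had the smallest p in D7E against WTA. Id3 read 0.79 (adjusted p = 0.0713) and Id1 0.66 (adjusted p = 0.161) there. The WTA mean of Id3 was 4.36, close to the 4.31 of Rbpj probe ILMN_2588315, which was not above background in WTA. The size of the Id3 difference is therefore limited by the floor. Their relative Id2 read -0.13 (adjusted p = 0.842), with another tested probe of opposite sign. Id1 read 0.73 (adjusted p = 0.103) in WTD against WTA, where the repressor Bhlhe40 read -0.51 (adjusted p = 0.281). In D7E against WTD Nrarp, a feedback inhibitor that Notch induces, read -0.53 (adjusted p = 0.481) and Bhlhe40 0.30 (adjusted p = 0.698). Of the 10 tested genes of this list 7 had values above 0 in WTD against WTA, 6 in D7E against WTA and 7 in D7E against WTD.

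Genes with a pattern over the 8 arrays like that of Hey1 were found by the root mean square distance of profiles centred on their own means, over 10826 genes. The nearest were the growth factor gene Tgfb1 at a distance of 0.123, Tmem191c at 0.131 and Ss18l2 at 0.142, where the median gene stood at 0.437. Tgfb1 read 7.56, 7.76 and 7.15 in D7E, 8.12, 8.24 and 8.07 in WTD, and 7.27 and 7.25 in WTA, so its WTD arrays were the highest and, unlike Hey1, its D7E replicate 3 lay below WTA. For Dll1 the nearest were Tpp2 (0.0984), Cir1 (0.103) and Wdr75 (0.112), and for Hes6 on its brightest probe Slc22a17 (0.109), Npnt (0.122) and Capn1 (0.130). The 8 arrays of each profile share their normalization.

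**Figure D5:**
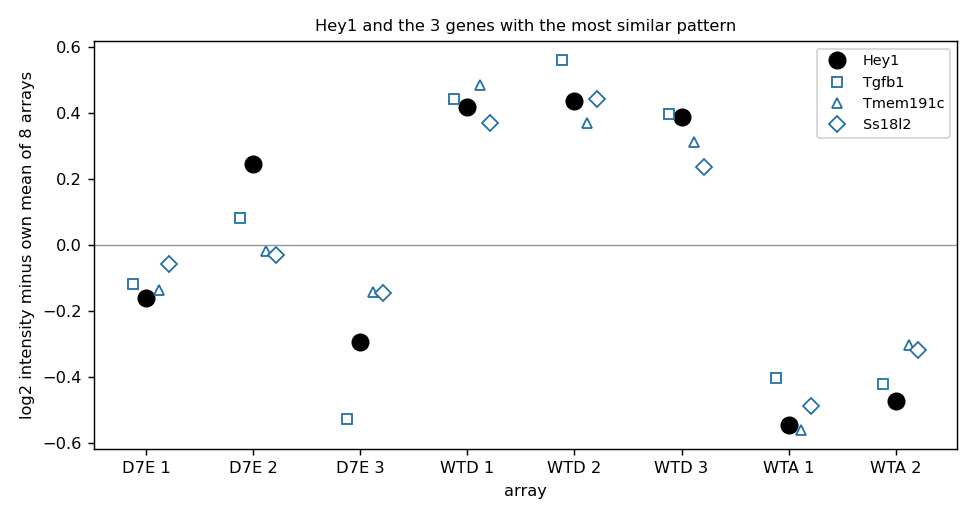
Log2 intensity minus the gene's own mean over the 8 arrays (y axis) for Hey1 and the 3 genes of most similar pattern on each D7E, WTD and WTA array (x axis). The 3 WTD arrays are the highest for all 4 genes, and the WTA arrays are the lowest for Hey1, Tmem191c and Ss18l2 but not for Tgfb1, which is lowest on D7E replicate 3.

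Markers of other cells were set beside these results. The summed intensity of 5 fibroblast markers, 78.0% of it Col1a1, was 1960 to 2764 in D7E, 1748 to 2057 in WTD and 2633 to 3148 in WTA, so it was lower on every WTD array than on either WTA array, opposite to Hey1. The markers tested between WTD and WTA were not uniform, at -0.73 for Col1a1, -0.81 for Col3a1, -0.01 for Pdgfra and 0.31 for Col1a2. Myotube markers summed to 94288 to 101913 in D7E, 98446 to 99807 in WTD and 96824 to 111332 in WTA. Of the 9 tested between D7E and WTA, 3 were above 0 and 6 below. They ranged from -0.58 for Ckm (limma adjusted p = 0.187) to 0.48 for Myog (limma adjusted p = 0.239). The 3 detected myoblast and reserve cell markers, 84.0% Myod1, summed to 788 to 956 in D7E, 714 to 972 in WTD and 664 to 721 in WTA, overlapping between WTD and WTA but not between D7E and WTA. That sum describes mostly Myod1. Between D7E and WTA Myod1 read 0.43, Sdc4 0.03 and Vcam1 -0.47 (limma adjusted p = 0.296, 0.975 and 0.496). Endothelial markers (3 of 7 detected) summed to 55.1 to 68.7, 59.3 to 74.9 and 62.2 to 69.6 in D7E, WTD and WTA, and macrophage markers (2 of 5 detected) to 40.0 to 46.8, 39.4 to 48.6 and 42.9 to 45.1. Both sums rest on dim probes. In WTD against WTA the WTA means were 4.56 for Kdr, 4.36 for Tek, 4.38 for Lyz2 and 4.46 for Csf1r. Rbpj probe ILMN_2588315, not above background in WTA, read 4.28 there. No marker passed in any comparison, and the part of cell composition in the Hey1 result was not tested.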

How the data were processed

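Illumina bead arrays of 3 D7E, 3 WTD and 2 WTA samples were used, grouped by sample title. The authors deposited, per the file headers, 2 raw tables without normalization, with the linear signal intensity of 45281 probes beside a detection p-value on every array. The authors also deposited log2 values of all arrays, which by their distributions are quantile normalized, and the sources used here do not say how these were made. The WTA arrays stand in both tables with 100% identical signals and were counted once.

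The WTD columns did not follow the probe identifiers. Each probe's pair of WTA ranks was unique and matched all 45281 probes between the raw table and the authors' values. The WTD signals had rank correlations with WTA replicate 1 of 0.725 to 0.770 after restoring and -0.00232 to 0.0025 before. For WTD replicates 1 and 3 the deposited detection p-values did not follow the signals (rank correlation -0.714 and -0.711, against -0.987 to -0.996 elsewhere). They were estimated from 23132 background probes, an estimate that gave the deposited call for 97.3% to 98.8% of probes on the other arrays.

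Signals were normalized by the neqc function (offset 16) of limma 3.58.1, under R 4.3.3, within a raw table for comparisons with WTA and over 8 arrays for D7E against WTD. Probes with a detection p under 0.05 on at least 2 arrays went into lmFit and eBayes with no covariates, as two-sided tests. Symbols came from the platform annotation, where 34885 probes name 1 gene, 18 several and 10378 none, and the brightest tested probe stands for a gene in lists. No slide or scan batch was available to test. The members and lists were chosen with earlier results of these data known. All member probes are named, and from each list the 2 genes of smallest p. Alternatives covered background correction, the authors' values, median centring, the filter, a fit of 3 groups, the block, the deposited detection p-values and each array left out. The number of arrays limits the precision.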

Additional observations from a re-analysis of the deposited data

How the results depend on the processing

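Most differences of the member probes kept their direction and their side of the threshold: 126 of the values under alternatives in WTD against WTA, 108 in D7E against WTA and 136 in D7E against WTD. The difference of Notch1 between WTD and WTA, near 0, turned to 0.0013 with quantile normalization alone, 0.00086 in the authors' values, 0.087 with the replicate block and 0.0032 with the deposited detection p-values. Median centring turned Notch3 to 0.27 and Heyl to 0.00043 in D7E against WTA, and Notch3 to 0.24, Hes1 to 0.46 and Hey1 to 0.20 in D7E against WTD. With it, the median difference of all tested probes was -0.10 in WTD against WTA and 0.31 in D7E against WTA. In D7E against WTD it was 0.44. The array medians themselves were taken over all 45281 probes, tested or not. The cause of these median differences was not tested.

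The count of member probes passing in WTD against WTA went to 0 with median centring and to 0 without the filter on dim probes, which tests 45281 probes (Hey1 adjusted p = 0.0539), and in D7E against WTA to 4 with median centring. Over all probes, WTD against WTA gave 0 calls with median centring (138 at an unadjusted p under 0.05), 16 without the filter and 539 with the replicate block, against 210. D7E against WTA gave 1648 with median centring, 0 without the filter (4387 unadjusted), 47 with detection on at least 3 arrays and 225 with the replicate block, against 71. D7E against WTD gave 5 in a fit of 3 groups and 6 with the replicate block, against 1, and 0 with quantile normalization alone, the authors' values, median centring, no filter, detection on at least 3 arrays or deposited detection p-values (1390 to 2938 unadjusted).

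Replicate numbers did not pair the arrays, with correlations of deviations between same-numbered arrays of -0.275 to 0.150, no D7E array correlated best with the WTD array of its own number, and the block changed no call of a member probe. Leaving out 1 array gave 12 to 312 calls in WTD against WTA, 0 to 244 in D7E against WTA and 0 to 73 in D7E against WTD, with 0 to 1 member probes called in each comparison with WTA and 0 in D7E against WTD. Differences then ranged in WTD against WTA from -0.16 to 0.16 for Notch1, -0.33 to 0.16 for Notch2, -0.0253 to 0.56 for Notch3, -0.30 to 1.54 for Hes6 ILMN_2608043 and -0.00907 to 0.61 for Hes6 ILMN_2791952. In D7E against WTA they ranged from -0.12 to 0.26 for Notch1, -0.47 to 0.15 for Notch3, -0.00098 to 0.41 for Hes1, -0.52 to 0.0819 for Heyl and -0.18 to 1.70 for Hes6 ILMN_2608043. In D7E against WTD they ranged from -0.0230 to 0.24 for Notch1, -0.0805 to 0.10 for Dll1, -0.37 to 0.0333 for Hes1 and -0.0597 to 0.48 for Hes6 ILMN_2608043.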
